A study of Mus musculus with 6 samples.

Results

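NRF2 antioxidant response genes were followed in N2a cells, a mouse neuroblastoma line, after knockdown of *Npm1*. The 10 genes are *Nfe2l2*, which codes for NRF2 itself, and *Srxn1*, *Txnrd1*, *Txn1*, *Prdx1*, *Gclm*, *Gclc*, *Slc7a11*, *Hmox1* and *Nqo1*, all found by their gene symbol among the 26656 genes of the RNA-seq tables. *Srxn1* was selected on its difference between the groups in these same libraries, and the other 9 were added as textbook NRF2 targets with earlier results of these data known. The differences of the 10 genes between the groups are therefore given as a description, with no test. The question was whether *Srxn1* moved alone or together with the other NRF2 targets.

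N2a cells of wild-type genotype were transfected with a pLKO.1 plasmid coding for a non-targeting shRNA (CTR, 3 libraries) or for 1 shRNA against *Npm1* (NPM1 KD, 3 libraries), and RNA was taken 72 h later, at 3 days in vitro. Puromycin at 9.3 µg/ml was present from 24 h after transfection until RNA extraction in the knockdown experiments. The description of the series gives 3 biological replicates per condition and the treatment protocol gives 2, so the spread between these libraries may in part be technical. The p-values rest on that spread taken over genes of similar level, not on the spread of each gene. cDNA was amplified by PCR, barcoded and sequenced in long reads by nanopore. With a single hairpin, an effect of *Npm1* loss and any other effect of that hairpin cannot be told apart.

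NRF2 is a transcription factor that is kept low in resting cells because KEAP1, a cysteine-rich adaptor, hands it to the CUL3 ubiquitin ligase for degradation. Oxidants and electrophiles modify KEAP1, NRF2 then accumulates, pairs with a small MAF protein and binds antioxidant response elements in front of its targets. The targets make and use glutathione, keep thioredoxin and peroxiredoxins reduced, break down haem and detoxify quinones. They are widely read together as a sign of oxidative stress, also in neurons and neuroblastoma cells.

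Antioxidant response elements share the letters TGACNNNGC, and the promoters are shown here for where these letters lie in each gene. Since 9 of the genes were taken as known NRF2 targets, a high share of matches is in part set by their choice and is no separate finding. The promoter sequences are those of RefSeq on GRCm38.p6, 250 bases before to 50 bases after each start, which is not the build of the files (GRCm39). Of the 10 genes 8 were matched, all but *Gclc* and *Hmox1*. TGACNNNGC was found on either strand in 5 of these 8 genes (*Nfe2l2*, *Srxn1*, *Txnrd1*, *Prdx1* and *Gclm*). *Slc7a11*, *Txn1* and *Nqo1* lack these letters in this window. A match is held by 14.0% of all 27025 genes with a promoter, and over the 68 matched genes of a wider NRF2 list described further on 13 do (19.1%). Each window below runs 5′ to 3′ in the direction of the gene, with the match in capitals; where the match is on the other strand, the capitals read as its reverse complement, GCNNNGTCA.
*Nfe2l2*, chr2:75704885-75704913, minus strand, match at -240 to -232 from the start: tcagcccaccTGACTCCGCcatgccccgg
*Gclm*, chr3:122245413-122245441, plus strand, match at -134 to -126 on the other strand: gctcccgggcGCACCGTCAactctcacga
*Prdx1*, chr4:116685456-116685484, plus strand, match at -133 to -125 on the other strand: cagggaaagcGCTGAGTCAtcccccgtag
*Txnrd1*, chr10:82859104-82859132, plus strand, match at -92 to -84 on the other strand: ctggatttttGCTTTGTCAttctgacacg
*Srxn1*, chr2:152105542-152105570, plus strand, match at 29 to 37 past the start on the other strand: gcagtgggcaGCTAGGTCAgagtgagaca

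Of the 5 genes only *Srxn1* has its TGACNNNGC match past the start rather than before it. In front of its start *Srxn1* holds the related letters TGAGNNNGC at 2 places, a form that was looked at after the first search. Both are shown because *Srxn1* is the gene with the largest difference described below.
*Srxn1*, chr2:152105469-152105497, plus strand, match at -45 to -37: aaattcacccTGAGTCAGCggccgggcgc
*Srxn1*, chr2:152105356-152105384, plus strand, match at -158 to -150 on the other strand: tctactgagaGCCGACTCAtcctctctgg

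The first of these overlaps a match of TGANTCA, the core letters bound by AP-1, and so does the match of *Prdx1*. TGANTCA itself is in 2 of the 8 matched genes, *Srxn1* and *Prdx1*, and in 8.97% of all genes with a promoter. With either form of the element (TGACNNNGC or TGAGNNNGC), 6 of the 8 genes had a match, *Slc7a11* being the one added, against 30.8% of all genes. These matches are descriptions of the letters, and no binding was measured.

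Levels are regularized log (rlog) values as deposited by the authors, a log2 expression value corrected for library size that pulls the libraries of weakly expressed genes towards each other. Values of 1 or more in size are given as whole numbers. A value can thus be 0.5 away from the unrounded one, and a difference between group means up to 1. Levels are not per length and are not compared between genes. Genes averaging log2 of 10 or more over the libraries, 5752 in number, were tested with limma. Its standard errors (SE) and p-values follow the mean level of a gene, so genes at the same mean share an SE whatever their own spread. The relative depth of the 6 libraries, read from genes with a single read, ranged from 0.784 to 1.30. The mean normalized counts of the authors add up to 841220 over all genes, and over the tested genes their median is 28.4.

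The knockdown was visible in every library. *Npm1* (ENSMUSG00000057113) was at 10 in all 3 CTR libraries and at 8 in all 3 NPM1 KD libraries, a difference of -2 (SE 0.334) on the log2 scale (limma, adjusted p = 3.23e-06). At an adjusted p of 0.05 limma called 4 of the tested genes (0.0695%) higher in NPM1 KD and 24 (0.417%) lower. The groups did not overlap in 126 genes (2.19%) that were higher and in 196 genes (3.41%) that were lower.

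All 12 sympathoadrenal neuroblastoma markers examined had reads. Of the 8 that were tested 7 had a lower mean in NPM1 KD (27.4% of all tested genes did). The exception among these 8 was the transcription factor *Hand2*, at 8, 7 and 8 in CTR and at 8 in every NPM1 KD library, a difference of 0.33. Of the markers below the filter, *Phox2a* was higher without overlap (0.301 to 0.382 in CTR, 0.413 to 0.543 in NPM1 KD). Its mean normalized count was only 1.42. *Gata3* and *Dbh* were equal in all libraries, and *Th* had a lower mean (-0.33). In 5 of the 8 tested markers (62.5%, beside 3.41% of all tested genes) the groups did not overlap and NPM1 KD was lower, namely *Chgb*, *Chga*, *Stmn2*, *Tubb3* and *Isl1*. The chromogranins *Chgb* and *Chga*, proteins of secretory granules, fell by 1.67 and 1.33 on the log2 scale (limma, adjusted p = 0.0011 and 0.026), while *Stmn2*, *Tubb3* and *Isl1* each differed by -1 (adjusted p = 0.0791). The call of *Chga* was lost with each library left out (adjusted p 0.069 to 0.244), with a replicate block (0.167), with 0.0833 added to every variance (0.110), without the limit on the variance (0.208) and without a filter (0.0678). That of *Chgb* was lost without the limit on the variance (0.0957), without CTR 1 (0.111) and without CTR 2 (0.111). Levels of the 12 markers were summed as 2 to the power of the rlog value. The sums were 1375 to 1521 in CTR and 799 to 847 in NPM1 KD. Most of the summed values are whole numbers, and the ranges of the sums leave out the rounding error. The sums weigh most on the markers with the highest values, such as *Stmn2* (9 in every CTR library, 8 in every NPM1 KD library). The part of the marker shift in the results below was not tested. In bulk RNA, fewer cells of a type and less RNA per cell cannot be told apart. Fibroblast, macrophage and epithelial markers did not exceed an rlog value of 2 in any library, and *Ptprc*, *Csf1r*, *Col1a2*, *Col3a1* and *Krt18* were listed at 0 in all 6.

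*Nfe2l2* was measured at the same value in both groups. Its rlog value was 4 in CTR 1, 2 and 3 and 4 in NPM1 KD 1, 2 and 3 (authors' mean normalized count 15.9). The 6 equal values hold the unrounded difference of its group means within -1 to 1 in rlog value, so a difference below that could go unseen. Since rlog pulls the libraries of weakly expressed genes towards each other, a larger change of its mRNA could go unseen too. NRF2 is mainly controlled by degradation of the protein, which RNA-seq does not measure.

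*Srxn1* (ENSMUSG00000032802), sulfiredoxin, restores peroxiredoxins whose cysteine has been over-oxidized. Its rlog value was 3, 4 and 3 in CTR 1, 2 and 3 and 5, 4 and 5 in NPM1 KD 1, 2 and 3. The group means were 3.33 ± 0.577 (SD, n = 3) in CTR and 4.67 ± 0.577 (SD, n = 3) in NPM1 KD, a difference of 1.33 (SE 0.349). *Nfe2l2* and *Gclm*, each at one value in every library, have the same SE of 0.349, so it does not describe the spread of *Srxn1* itself. NPM1 KD 1 and 3 lay above all 3 CTR libraries, whereas NPM1 KD 2 had the value of CTR 2, so the groups touch at 4. Rounding leaves the unrounded difference anywhere between 0.33 and 2.33. *Srxn1* is the only one of the 10 genes for which this range stays above 0. It is 1 of 4 genes (0.0695% of those tested) with a difference above 1 towards NPM1 KD, which describes the gene and is no support for it, since it was selected on this contrast. The others are the small nucleolar RNA host gene *Snhg9*, *Hspa5*, a chaperone of the endoplasmic reticulum, and *Eif3j2*, named here after their values were seen. The mean normalized count behind these values was 24.1.

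**Figure D1:**
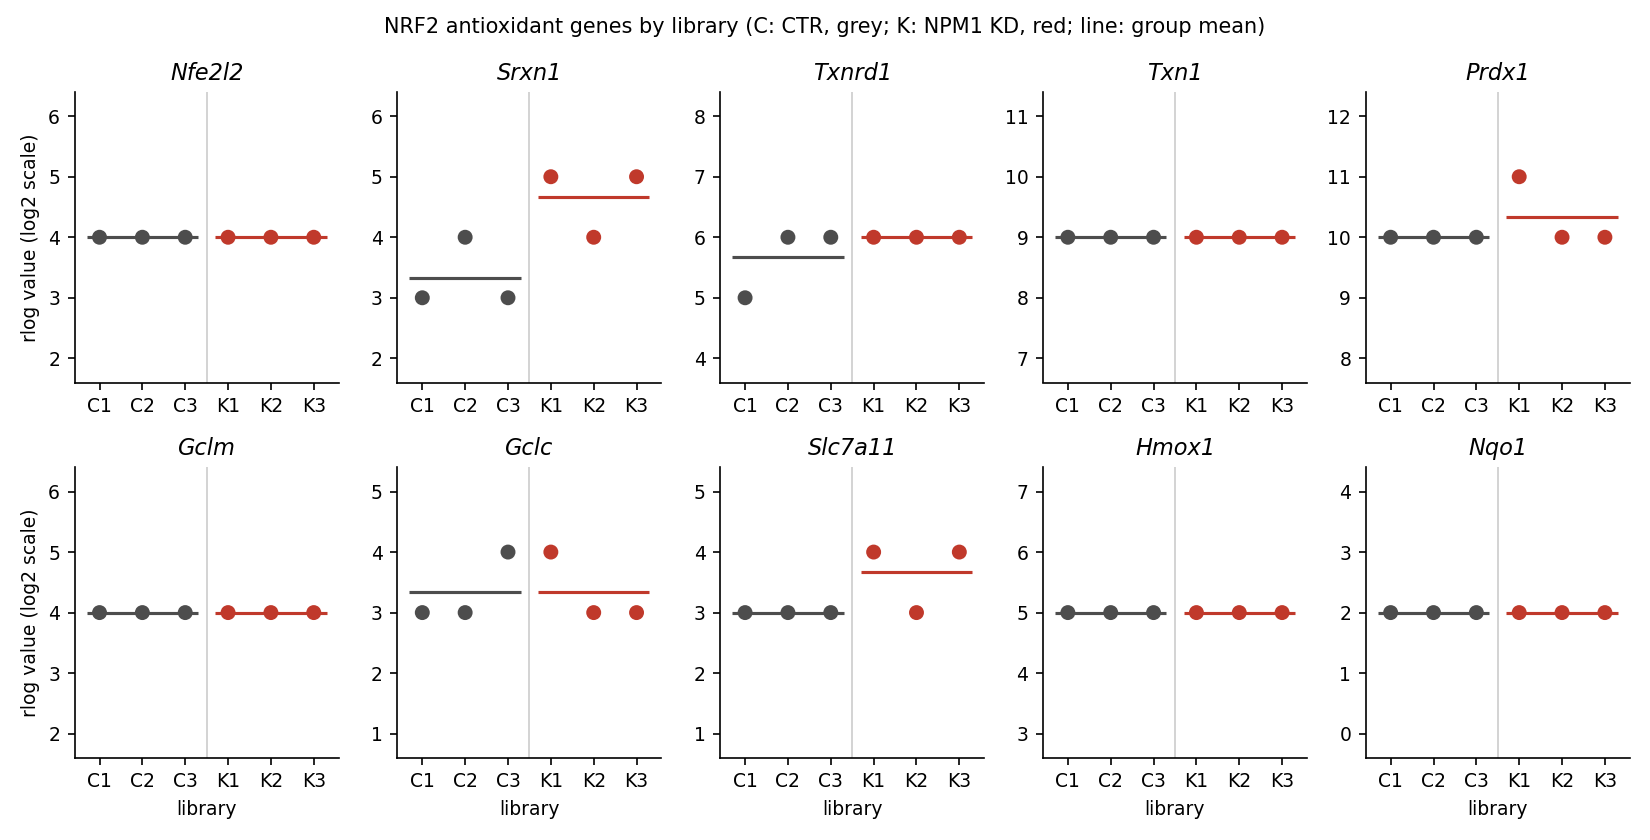
rlog value (y axis, log2 scale, whole numbers as deposited) of the 10 NRF2 antioxidant genes in each library (x axis: C1 to C3 for CTR in grey, K1 to K3 for NPM1 KD in red), with lines at the group means. *Srxn1* sits at 3 to 4 in CTR and 4 to 5 in NPM1 KD, *Slc7a11* is 1 step higher in K1 and K3, and *Nfe2l2*, *Txn1*, *Gclm*, *Hmox1* and *Nqo1* have one value in all 6 libraries.

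The thioredoxin and peroxiredoxin branch holds the proteins that *Srxn1* works with. *Prdx1*, a peroxiredoxin that removes hydrogen peroxide and is a substrate of sulfiredoxin, was at 10, 10 and 10 in CTR and at 11, 10 and 10 in NPM1 KD, a difference of 0.33 (SE 0.317). Only NPM1 KD 1 stood 1 step above the rest, and the groups overlap. *Txnrd1*, the cytosolic reductase that keeps thioredoxin reduced, was at 5, 6 and 6 in CTR and at 6 in every NPM1 KD library, a difference of 0.33 (SE 0.340). Here the difference comes from CTR 1 alone, which was 1 step lower. *Txn1*, thioredoxin itself, was at 9 in all 6 libraries. The mean normalized count behind these values was 1112 for *Prdx1*, 488 for *Txn1* and 57.3 for *Txnrd1*.

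For the glutathione branch the values were as follows. *Slc7a11*, the cystine importer of the xc- exchanger, was at 3, 3 and 3 in CTR and at 4, 3 and 4 in NPM1 KD, a difference of 0.67 (SE 0.405). Like *Srxn1*, it was higher in NPM1 KD 1 and 3 and at the CTR value in NPM1 KD 2. Its mean normalized count was 12.9, and rounding leaves a difference between -0.33 and 1.67. *Gclc*, the catalytic subunit of glutamate-cysteine ligase, the first enzyme of glutathione synthesis, was at 3, 3 and 4 in CTR and at 4, 3 and 3 in NPM1 KD. Each group held a single library at 4, and the group means were equal (difference 0, SE 0.405). *Gclm*, the modifier subunit of the same enzyme, was at 4 in all 6 libraries.

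The haem and quinone targets showed no step in any library. *Hmox1*, haem oxygenase 1, which breaks down haem and is among the most inducible NRF2 targets, was at 5 in all 6 libraries (mean normalized count 28.9). *Nqo1*, a quinone reductase, was at 2 in all 6 libraries. With a mean normalized count of 3.91 *Nqo1* is the 1 gene of the 10 that did not pass the filter on low values. Its 6 equal values hold the unrounded difference in rlog value within -1 to 1. At so low a count the mRNA itself could differ by more.

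Over all 10 genes, 4 had a higher mean in NPM1 KD (*Srxn1*, *Slc7a11*, *Txnrd1* and *Prdx1*), 6 had equal means and 0 had a lower one. Over all tested genes 24.6% had a higher mean, 48.0% equal means and 27.4% a lower one. Of the 6 NRF2 genes with equal means 5 had one value in all 6 libraries, which was also true of 2310 (40.2%) of the tested genes. The median difference of the 9 genes other than *Srxn1* was 0 and their mean difference 0.148, beside a median of 0 and a mean of -0.02 over all tested genes. None of the 10 had groups that did not overlap (2.19% of tested genes were non-overlapping and higher, 3.41% non-overlapping and lower). Averaged over the 9 other genes, the rlog value was 5.00, 5.11 and 5.22 in CTR 1, 2 and 3, and 5.44, 5.11 and 5.22 in NPM1 KD 1, 2 and 3, so that NPM1 KD 1 was the highest library and the groups overlap. At the resolution of whole log2 steps, a joint move of the 9 genes with *Srxn1* was not seen. A difference in rlog value of under 1 in size could go unseen for *Nfe2l2*, *Txn1*, *Gclm*, *Gclc*, *Hmox1* and *Nqo1*. Rounding leaves a difference of up to 1.67 for *Slc7a11* and up to 1.33 for *Txnrd1* and *Prdx1*, while that of *Srxn1* could be as low as 0.33. For the weakly expressed genes larger changes of mRNA could go unseen, since rlog values are pulled together.

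**Figure D2:**
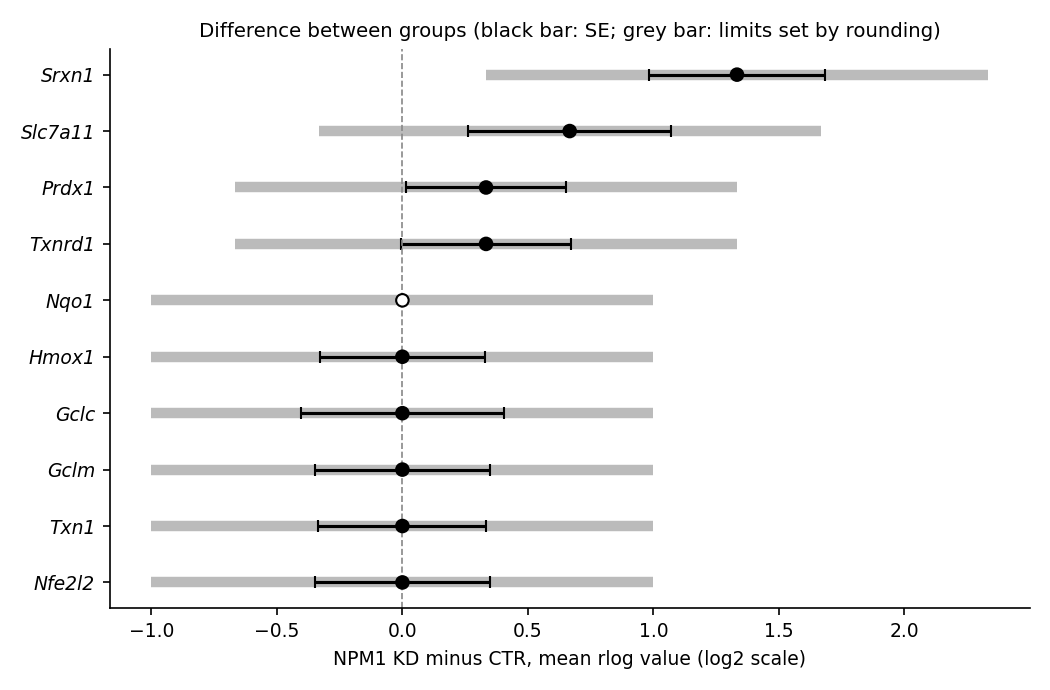
Difference of the mean rlog value between NPM1 KD and CTR (x axis, log2 scale) for the 10 genes (y axis). Points are the differences, black bars the standard error from limma, grey bars the range in which the unrounded difference lies. The standard error follows the mean level of a gene and not its own spread. The open point is *Nqo1*, which did not pass the filter on low values. The grey bar of *Srxn1* (0.33 to 2.33) is the only one that does not reach 0.

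The genes whose values across the 6 libraries were most like those of *Srxn1* were found by the Euclidean distance between gene-centred rlog values, over 5751 other tested genes. This uses the same contrast and is a description. No gene had the very same pattern. *Gpatch4*, which codes for a G-patch protein, and the non-coding *Rab26os* were nearest (distance 0.913 each). *Gpatch4* was at 5, 6 and 6 in CTR, against 7, 6 and 7 in NPM1 KD, so it shares with *Srxn1* the lower value of NPM1 KD 2. *Rab26os* was at 4, 5 and 4 in CTR, against 6, 5 and 5 in NPM1 KD. The next, at a distance of 1.15, were the predicted genes *Gm10288*, *Gm10036*, *Gm4705* and *Gm11478*, ahead of others with the same distance by their higher counts. *Gm10288* and *Gm10036* had equal values in every library, and reads of predicted genes may be shared with a near-identical copy. Of the NRF2 genes *Slc7a11* was also at 1.15, a rank of 3 that it shares with every gene at this distance. Such a shared rank does not set it apart from those genes. The other 7 that passed the filter were at 1.68 or more, with *Prdx1* and *Txnrd1* nearest at a shared rank of 301.

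A wider list of 81 further genes of the NRF2 pathway, in 7 roles, was written from general knowledge. Of these 47 passed the filter on low values. None was called by limma at an adjusted p of 0.05, in either direction, where 0.0695% of all tested genes were called higher and 0.417% lower. No gene of the list differed by more than 1 in size. A difference of 1 with groups apart had an adjusted p of 0.0791 (limma, *Sqstm1* and *Slc3a2*). The lack of calls thus follows from the whole-number values and says nothing about changes of 1 step or less. At an unadjusted p of 0.05, 3 of the 47 were higher (6.38%, beside 6.07% of all tested genes) and 7 were lower (14.9%, beside 8.07%). By their values 13 had a higher mean in NPM1 KD (27.7%, beside 24.6% of all tested genes), 12 a lower one (25.5%, beside 27.4%) and 22 equal means (46.8%, beside 48.0%). The median difference of the list was 0, as over all tested genes. The groups did not overlap in 1 gene that was higher (2.13%, beside 2.19% of all tested genes) and 1 that was lower (2.13%, beside 3.41%), which is no more than over all tested genes.

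**Figure D3:**
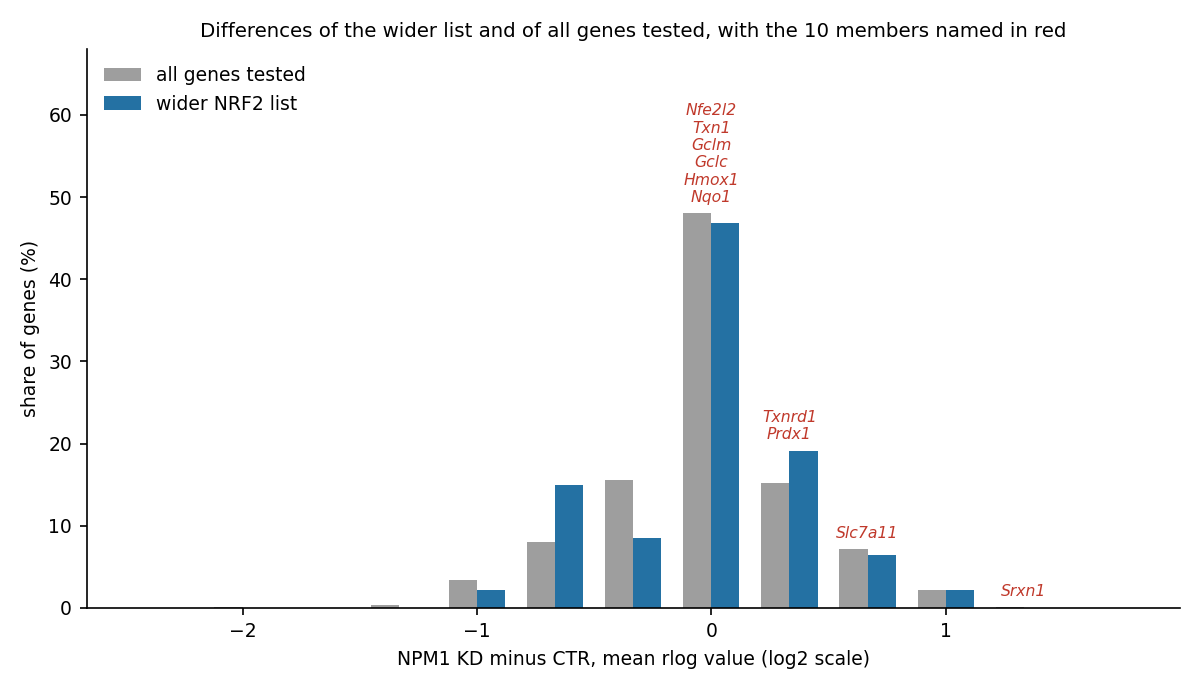
Share of genes (y axis, %) at each difference of the mean rlog value between NPM1 KD and CTR (x axis, log2 scale, in steps of 0.333), for the 5752 tested genes in grey and the 47 tested genes of the wider NRF2 list in blue, with the 10 NRF2 genes named in red at their own difference. The share at a difference of 0 is 48.0% for all genes and 46.8% for the list, and *Srxn1* lies to the right of every gene of the list.

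Among the genes that control NRF2, *Keap1* was at 4 in all 6 libraries. *Sqstm1* codes for p62, an autophagy receptor that can bind KEAP1 and is itself an NRF2 target. It was at 7 in all 3 CTR libraries and at 8 in all 3 NPM1 KD libraries, a difference of 1.00 (SE 0.346; limma, adjusted p = 0.0791), and the groups do not overlap. Rounding leaves an unrounded difference between 0 and 2. Its adjusted p passed the threshold in 2 alternatives, without the limit on the variance (3.58e-11) and without the intensity trend (0.0304), and ranged up to 0.244 over the others. Each group holds a single whole number, so without that limit its residual variance is 0, and the 3.58e-11 is no measure of strength. *Gsk3b*, a kinase that marks NRF2 for another ligase, had a difference of 0.67 (SE 0.338; adjusted p = 0.330) with overlapping groups. *Bach1*, a repressor at antioxidant response elements, and *Mafg*, a small MAF partner of NRF2, had one value in all libraries (2 and 3) and did not pass the filter. Of the 6 tested genes of this role 4 had a higher mean and 0 a lower one, where 24.6% of all tested genes had a higher and 27.4% a lower mean. This is 1 role of 7, and nothing particular to it was tested.

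Among the tested glutathione genes the one with groups apart went the other way. *Slc3a2*, the heavy chain that carries *Slc7a11* and other amino acid transporters to the membrane, was at 8 in all 3 CTR libraries and at 7 in all 3 NPM1 KD libraries, a difference of -1 (SE 0.346; limma, adjusted p = 0.0791). The same 2 alternatives brought it past the threshold, with the same adjusted p as *Sqstm1*, and its range over the others also went up to 0.244. Its partner *Slc7a11* had a difference of 0.67 in the opposite direction. *Gstm1*, a glutathione transferase, had a difference of -0.67 (SE 0.349; adjusted p = 0.335). *Gsr*, which regenerates reduced glutathione, and *Gpx4*, which reduces lipid peroxides, each differed by 0.33 through a single lower CTR library. Reads of *Gstm1* may be shared with other transferases of its family.

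The other roles were mixed. Both ferritin chains, which store iron and are NRF2 targets, had lower means in NPM1 KD: *Fth1* was at 9, 10 and 10 in CTR and 9 in every NPM1 KD library, and *Ftl1* at 6 in every CTR library and 6, 5 and 5 in NPM1 KD (both -0.67, adjusted p = 0.330). For *Ftl1* a listed copy, *Ftl1-ps1*, matches at 99.6% identity over 94.0% of the transcript, so reads may be split between them, and for *Fth1* 0 copies were found by the same search. *Slc48a1*, a haem transporter, differed by 0.33. In the supply of NADPH, *Pgd* had a difference of 0.67, *Tkt* and *Pgls* of -0.67 and *Taldo1* of 0.33, all of them enzymes of the pentose phosphate pathway. Their differences lay on both sides of 0.

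Among thioredoxin-related genes outside the 10, *Prdx3* and *Glrx5* differed by 0.33, *Prdx5* by -0.33 and *Glrx2*, a mitochondrial glutaredoxin, by -0.67, and 6 of 10 had equal means. *Prdx2* and *Prdx4*, further peroxiredoxins, were at 7 and 8 in all 6 libraries. In detoxification, *Esd* (0.67), *Cbr1* (0.33) and *Adh5* (-0.67) had unequal means and the other 5 of 8 tested genes had equal ones. *Sod1*, cytosolic superoxide dismutase, differed by -0.33 through CTR 3 alone, and *Sod2* and *Park7* had equal means. None of these passed the threshold.

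**Figure D4:**
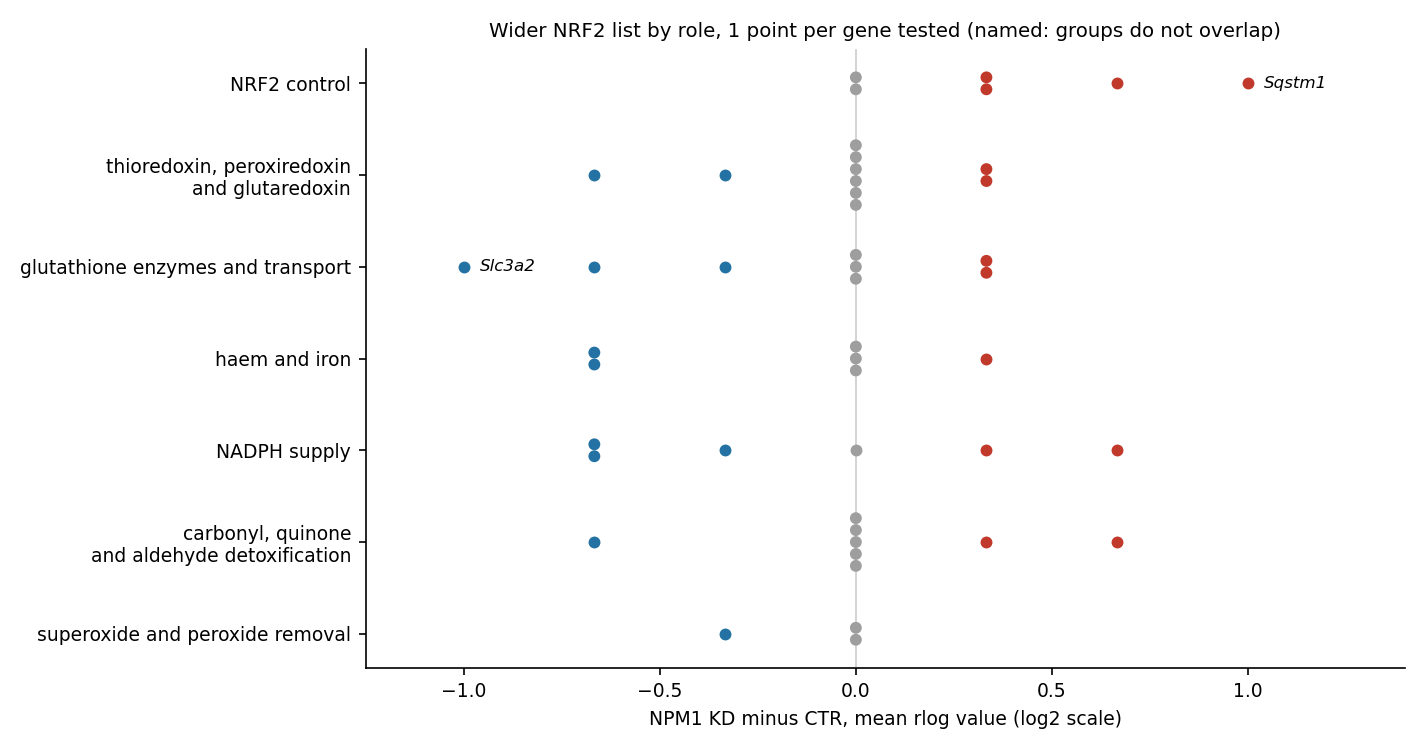
Difference of the mean rlog value between NPM1 KD and CTR (x axis, log2 scale) for the 47 tested genes of the wider NRF2 list, 1 point per gene, by role (y axis); red is above 0, blue below 0 and grey equal. *Sqstm1* at 1.00 and *Slc3a2* at -1 are the 2 genes whose groups do not overlap, a share no higher than over all tested genes.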

How the data were processed

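RNA-seq values of 6 libraries (3 CTR, 3 NPM1 KD) were used. The authors deposited an rlog score per gene and library and, in a second table, the mean normalized count over all libraries, which is a pooled value with no error. That table also holds the fold changes, standard errors, statistics and p-values of the authors' own comparison, which were not used. The submitters' processing notes name minimap2, featureCounts, DESeq2 and the build GRCm39, without versions. Whether counting used strand is not given in the sources used here.

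The 257 rows that repeat an Ensembl ID held the same values and were dropped, and 11880 genes were at 0 in every library. A two-sided moderated test was run with limma 3.58.1 under R 4.3.3 on the 5752 genes whose rlog values averaged log2 of 10 or more, using lmFit followed by eBayes with trend, Benjamini-Hochberg adjustment over every gene tested and a threshold of 0.05. Residual variances under 0.0833, the variance that rounding adds, were raised to it. The fit was tested on simulated data. A gene was said not to overlap when all values of one group lay above all of the other.

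The genes, the wider list and the markers were chosen with earlier results of these data known. Some markers are not reported here. Named from the wider list are genes past the threshold, tested genes without overlap, the 2 largest rises and 2 largest falls of each role among tested genes, and *Keap1*, *Bach1*, *Mafg*, *Gsr* and *Sqstm1*. *Prdx2*, *Prdx4*, *Sod2* and *Park7* were named in addition, after their values were seen. Transcripts of the 10 genes, *Npm1*, *Sqstm1*, *Slc3a2*, *Fth1* and *Ftl1* were aligned to all transcripts of GENCODE vM21 with minimap2 2.31, and copies were other genes matching at 90% identity over 50% of the length. The 10 genes had 0, *Ftl1* had 4 with 1 listed, and *Npm1* had 3 with 0 listed. Alternatives were the variance allowance, the trend, the filter, centring, a replicate block, leaving out each library and the letters of the motif.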

Additional observations from a re-analysis of the deposited data

How the results depend on the processing

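The difference of *Srxn1* was 1.33 and stayed between 1.17 and 1.67 when each library was left out in turn, and the median difference of the other 9 genes stayed at 0. The wider list kept a median of 0 except with each library centred on its mean, where its median and that of the other 9 genes were each 0.0239. It had 0 calls in either direction under every alternative except no limit on the residual variance and no intensity trend, which each gave 1 higher (*Sqstm1*) and 1 lower (*Slc3a2*). The counts over all genes moved with the settings, and the cause was not tested. Without the limit on the variance 123 genes were called higher and 178 lower, without the trend 132 and 218, with 0.0833 added to every variance 1 and 7, and without a filter 1 and 10. Leaving out 1 library, whichever it was, left 0 to 2 genes called higher and 5 to 9 called lower, with fewer samples in the fit. Genes without overlap numbered 322, and 417 to 503 with a library left out (503 without CTR 3), where fewer values have to be apart. They numbered 752 without a filter, 172 with a mean rlog of at least 5, and 3730 when each library was centred on its mean, which by construction breaks ties between whole numbers. A filter at a mean rlog of 5 removes *Srxn1* and gives no value for it. *Npm1* passed the threshold under every alternative. With a replicate block 1 gene was called higher and 7 lower, and no call of *Npm1* or the wider list changed, while that of *Chga* was lost (adjusted p = 0.167). The deviations of same-numbered libraries had correlations of 0.0089, 0.0013 and 0.0298, and those of differently numbered libraries ran from -0.0364 to 0.0245. Whole numbers can hide a shared shift smaller than 1 step, so whether same-numbered libraries form pairs was not tested. With an A required after the motif's last base 1 of the 8 matched genes had a match, and with TGAGNNNGC also allowed, a form chosen after seeing the data, 6 did.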
